A study of Mus musculus with 2 samples.

Results

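Cholangiocytes, the epithelial cells that line the bile ducts, were examined in single-cell RNA-Seq data from mouse livers. A cell was counted as a cholangiocyte when it held at least 3 unique molecular identifiers (UMIs, which mark single captured RNA molecules) of the ductal epithelial genes Epcam, Krt7, Krt19 and Cldn7 together, with at least 2 of these 4 genes seen, and at most 1 UMI of Ptprc, the pan-leukocyte phosphatase CD45. The rule was applied to 17705 cells with at least 500 UMIs, at least 200 genes and at most 25% of UMIs from mitochondrial genes, and found 56 cells (0.316%, exact binomial 95% interval 0.239 to 0.411). Of these, 37 of 11617 cells (0.319%, 0.224 to 0.439) carried the barcode suffix 1 and 19 of 6088 cells (0.312%, 0.188 to 0.487) the suffix 2. The intervals of the libraries overlapped.

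The livers came from 1 Cebpa knockout sample and 1 wild-type sample, both kept for 2 weeks on a diet high in cholesterol, fructose and fat (HFCFD, 40% per the labels). Per the study's methods, Cebpa fl/fl mice crossed to albumin-cre and backcrossed to C57BL/6N lack the transcription factor CEBPA in hepatocytes (Cebpa ΔHep), so that deletion depends on where the albumin promoter is active. The study used male mice, and the labels give neither the age nor the number of animals behind a sample. The labels do not say which suffix belongs to which sample, so the libraries are called by their suffix, their genotype was not inferred, and a difference between them is one between 2 unassigned libraries. With 1 sample per genotype there was no replicate, no test was run, and every interval covers counting error only.

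Cholangiocytes modify the bile that hepatocytes secrete. They take up bile acids and glucose, secrete chloride, bicarbonate and water in response to hormones such as secretin, and sense flow through a primary cilium. In injured livers they can multiply in what is known as the ductular reaction, and they are a known source of osteopontin (OPN), the secreted phosphoprotein encoded by Spp1, and of growth factors that act on hepatic stellate cells.

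The label was checked with 8 biliary markers that the rule did not use, Sox9, Cdh1, Cd24a, Cldn3, Cldn4, Cftr, Pkhd1 and Sctr. The median cholangiocyte held UMIs of 5 of these 8 genes in either library, and 54 of 56 cells held at least 3. The same medians were 2 and 1 in deep hepatocytes, which are 586 and 521 cells of suffix 1 and 2 with at least 5000 UMIs, at least 1% of UMIs from Alb (albumin) and at most 1 UMI of the rule genes. Lymphocytes, 833 and 791 cells chosen by B or T cell receptor genes, had a median of 0. At least 3 of the 8 were also held by 154 and 65 of the deep hepatocytes and by 3 and 3 lymphocytes. Depth was not made equal for these counts. The 54 cells include the cells rich in Alb described below, and a cell whose leading genes go against the label. Cldn4 was seen in 3 of the 56 cells. The 2 cells without any of the 8 markers are described with the cells that stood apart.

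Depth differed among the cells and moved with albumin. The cholangiocytes held 3911 to 66134 UMIs (median 9798) in suffix 1 and 3049 to 30646 (median 7198) in suffix 2. Their median share of mitochondrial UMIs was 4.95% and 5.22%, against 16.2% and 15.5% in deep hepatocytes. No barcode sequence was shared between the cholangiocytes of the libraries, although 34 barcode sequences occurred in both libraries among all cells past the filter. Alb made up over 2% of the UMIs in 11 cells (9 and 2), whose median depth was 33117 UMIs and whose median mitochondrial share was 12.1%. In these 11 cells, 22 hepatocyte genes together took 12.4% of UMIs, close to the 13.4% in deep hepatocytes. Another 4 cells held 10 or more UMIs from at least 1 of 6 marker lists of other cells (mesothelial, T and NK, B and plasma, macrophage and Kupffer, neutrophil and monocyte, endothelial). The remaining 41 cells (25 and 16) are called unmixed below as a working name. Erythroid and stellate lists were not used for this, and 1 unmixed cell of suffix 1 held 10 or more UMIs of erythroid genes. Hepatocyte genes took 3.50% of the UMIs of unmixed cells in suffix 1 and 2.83% in suffix 2, against 3.47% and 4.59% in lymphocytes. Whether the 11 cells are doublets was not tested. Values are over all 56 cells unless unmixed cells are named, and selected levels and counts are also given without these 15 cells.

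**Figure D1:**
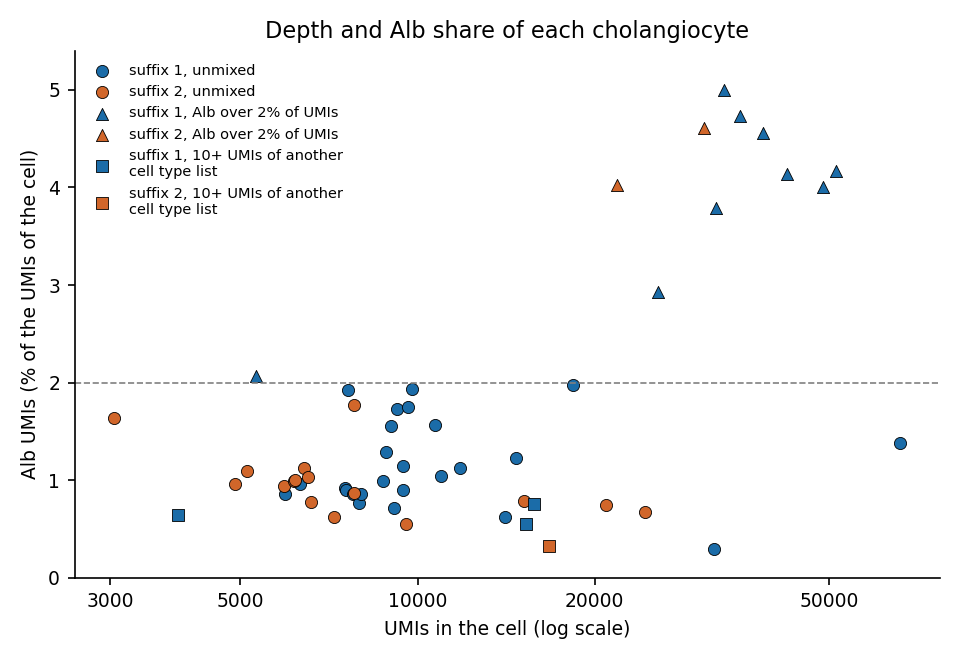
UMIs per cell (log scale) against the percent of UMIs from Alb in each of the 56 cholangiocytes, with suffix 1 in blue and suffix 2 in orange, circles for the 41 unmixed cells, triangles for the 11 cells with Alb over 2% (dashed line) and squares for the 4 cells with 10 or more UMIs of another cell type list. The triangles lie mostly among the deepest cells, with a median of 33117 UMIs.

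The rule genes were seen in varying combinations. Among the 56 cells, 14 showed 2 of the 4 genes, 24 showed 3 and 18 showed all 4. Epcam (chr17:87635979-87651129, mm10), the epithelial adhesion molecule, had a summed level of 367 CPM (UMIs of the gene per 1000000 UMIs summed) in suffix 1 and 615 CPM in suffix 2. Krt19, a ductal keratin, had 166 and 296 CPM, Krt7 had 38.9 and 89.3 CPM, and the tight junction claudin Cldn7 had 172 and 230 CPM. These levels chose the cells and support nothing. The 6 cells just inside the limit, with exactly 3 UMIs of the rule genes, had 852 CPM of Spp1 in suffix 1 and 817 CPM in suffix 2 (3 cells each), where deep hepatocytes had 940 and 72.1 CPM. In suffix 1 the cells at the limit were thus not above hepatocytes in Spp1. Just outside it stood 1 cell with 2 UMIs of 2 rule genes (20400 CPM of Spp1), 10 cells with 3 or more UMIs of a single rule gene (12794 CPM) and 8 cells of suffix 1 left out for more than 1 UMI of Ptprc (5480 CPM).

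Short stretches of promoter are shown for 2 genes on which the results below turn, because YAP targets are described as a group. Each is the 250 bases before the transcription start in the RefSeq table of mouse build GRCm38.p6, read 5′ to 3′ on the strand of the gene. Capitals mark the letters CATTCC or their reverse complement GGAATG, the core letters bound by TEAD factors. Both strands were searched. These letters occurred in 12.6% of all 32851 promoters of that length in the table, so a match is a description and not a site.
Ankrd1 (chr19:36119845-36120094, minus strand): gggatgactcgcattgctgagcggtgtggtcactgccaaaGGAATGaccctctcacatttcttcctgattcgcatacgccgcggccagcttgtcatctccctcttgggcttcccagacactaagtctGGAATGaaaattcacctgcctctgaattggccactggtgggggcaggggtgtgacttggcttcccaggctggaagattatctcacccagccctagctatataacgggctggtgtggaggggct
Ccn1 (chr3:145649986-145650235, minus strand): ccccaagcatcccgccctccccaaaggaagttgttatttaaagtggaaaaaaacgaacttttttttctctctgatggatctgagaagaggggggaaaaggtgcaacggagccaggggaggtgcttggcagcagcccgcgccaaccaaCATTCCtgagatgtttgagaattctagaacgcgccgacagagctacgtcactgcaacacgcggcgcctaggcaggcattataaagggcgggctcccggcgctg

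Spp1 (chr5:104435118-104441050) was present in nearly every cholangiocyte. Its summed level was 9914 CPM (95% interval 9677 to 10156) in the 37 cells of suffix 1 and 11425 CPM (10975 to 11888) in the 19 cells of suffix 2, and 54 of 56 cells held a UMI. In unmixed cells it reached 14693 CPM (14277 to 15119) and 16667 CPM (16006 to 17348). Per unmixed cell, Spp1 ranged from 91.4 to 29256 CPM with a median of 12558 in suffix 1, and from 4042 to 26540 CPM with a median of 14392 in suffix 2. The ranges of the libraries therefore overlapped almost entirely. In deep hepatocytes, by contrast, the summed level was 940 CPM (924 to 957) in suffix 1 and 72.1 CPM (66.1 to 78.5) in suffix 2. Cholangiocytes thus held 10.5 times the hepatocyte level of Spp1 in suffix 1 and 158 times in suffix 2, with cholangiocyte levels that lay close together and hepatocyte levels that lay far apart.

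**Figure D2:**
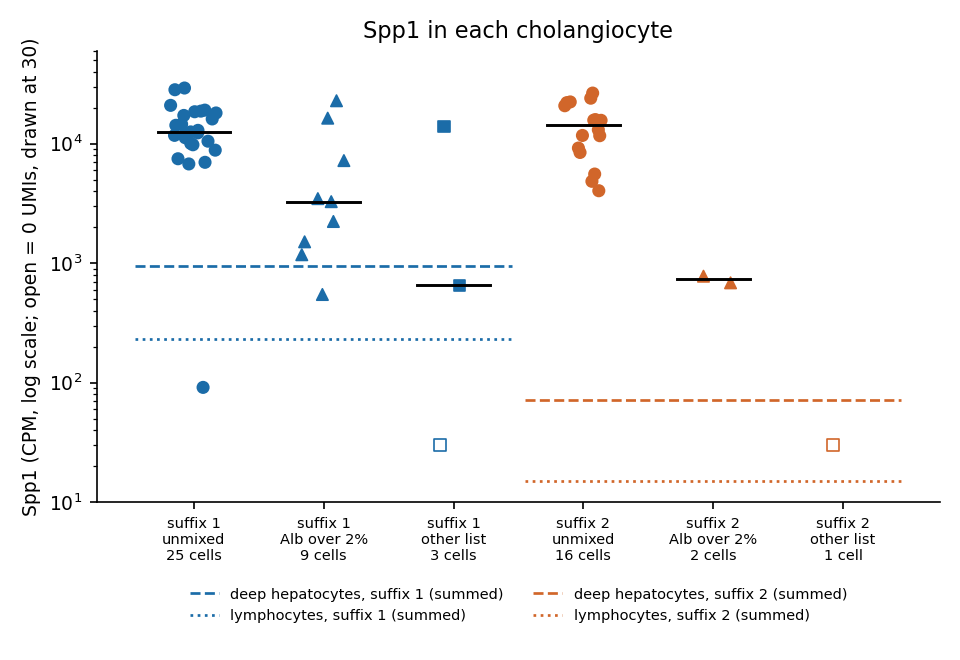
Spp1 in each of the 56 cholangiocytes (CPM, log scale) by suffix and by class of cell; black lines are medians, dashed and dotted lines are the summed levels in deep hepatocytes and lymphocytes of the same library, and open squares are cells with 0 UMIs drawn at 30. The unmixed cells of either library spread around medians of 12558 and 14392 CPM, and 1 unmixed cell of suffix 1 lies at 91.4 CPM.

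To compare shares of cells at equal depth, cells were thinned to 3000 UMIs each, and lymphocytes are given as the background, since free RNA can give UMIs to any cell. The UMIs kept were drawn at random for each class, and the intervals do not cover the spread between draws. A Spp1 UMI was then found in 96% of unmixed cells of suffix 1 (95% interval 79.7 to 99.9) and 100% of suffix 2 (79.4 to 100), with medians of 42 and 39 UMIs. The share was 53.8% and 9.79% in deep hepatocytes and 26.6% and 3.59% in lymphocytes, from which 66 and 122 cells under 3000 UMIs were left out. Before thinning, median depths were 9237 and 6553 UMIs in unmixed cells, 24526 and 12013 UMIs in deep hepatocytes and 4702 and 4352 UMIs in lymphocytes, and the unthinned shares of cells with a Spp1 UMI were 100% and 100%, 87.7% and 28.2%, and 38.5% and 6.2%. Cholangiocytes held 1.61% of all UMIs past the filter in suffix 1 and 0.822% in suffix 2, but 21.4% (20.9 to 21.9) and 66.1% (64.6 to 67.7) of all Spp1 UMIs. The share was lower in suffix 1, the library in which hepatocytes held more Spp1. For Epcam, a gene of the rule, the shares were 55.3% and 57.2%.

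The 11 cells with Alb over 2% differed from the unmixed ones in level. In the 9 of suffix 1, Spp1 ranged from 547 to 22890 CPM with a summed level of 5388 CPM, and in the 2 of suffix 2 it was 685 and 779 CPM.

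Cebpa (chr7:35119293-35121928), the gene targeted in the knockout, was sparse in cholangiocytes. In suffix 1, 2 UMIs were found in 2 of 37 cells, a level of 2.99 CPM (0.362 to 10.8). In suffix 2, 22 UMIs were found in 8 of 19 cells, a level of 103 CPM (64.8 to 157), and 13 of these UMIs came from 1 cell with Alb over 2%. In unmixed cells the levels were 3.12 CPM (1 UMI) and 62.7 CPM (28.7 to 119, 9 UMIs), and deep hepatocytes of the same libraries held 1.34 and 108 CPM. Lymphocytes held 6.91 and 26.6 CPM. Cebpa thus differed in the same direction in all 3 classes of cells, and RNA made by the cholangiocytes cannot be told apart here from free RNA of the same library.

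To see which genes set these cells apart from the liver's other epithelium, the summed level of each gene was compared with deep hepatocytes of the same library. A gene was called when it was at least 4-fold apart and the exact Poisson 95% intervals did not overlap. Over all genes with at least 10 UMIs in both classes together, 14.7% were called higher and 0.471% lower in suffix 1, and 15.0% and 1.03% in suffix 2 (17.2% and 0.536% over both libraries summed), with a median ratio over all genes of 1.79 and 1.99. In both libraries at once, 7.97% of 11197 genes were called higher and 0.107% lower. Among unmixed cells, 19.6% and 18.9% of genes were called higher and 3.08% and 3.15% lower. Since the cells were chosen by 4 genes and counted as a group, these ratios are descriptions of the cells and not tests.

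Other biliary identity genes were mostly called higher, 21 of 25 tested in suffix 1 and 21 of 23 in suffix 2, with median ratios of 10.5 and 12.6. Clu (clusterin, a secreted chaperone) had 8162 CPM (7947 to 8382) and 7568 CPM (7203 to 7947), against 789 and 872 CPM in hepatocytes. Anxa5, a phospholipid-binding annexin, had 1272 and 1621 CPM against 106 and 67.3 CPM. The simple epithelial keratins Krt8 and Krt18, which hepatocytes also make, had 859 and 879 CPM and 811 and 1113 CPM, between 4 and 6 times the hepatocyte level. Genes absent or nearly absent from hepatocytes included Tspan8, a tetraspanin (120 and 254 CPM), Cd24a (98.7 and 122 CPM), Krt23 (53.9 and 108 CPM) and the epithelial transcription factor Ehf (50.9 and 160 CPM). Cp (ceruloplasmin, 1364 and 1889 CPM) and Ambp (1713 and 1297 CPM), which the list holds as biliary genes, were not called, at 2.65 and 1.17 times the hepatocyte level over both libraries. The mucosal gene Dmbt1 had no UMI.

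**Figure D3:**
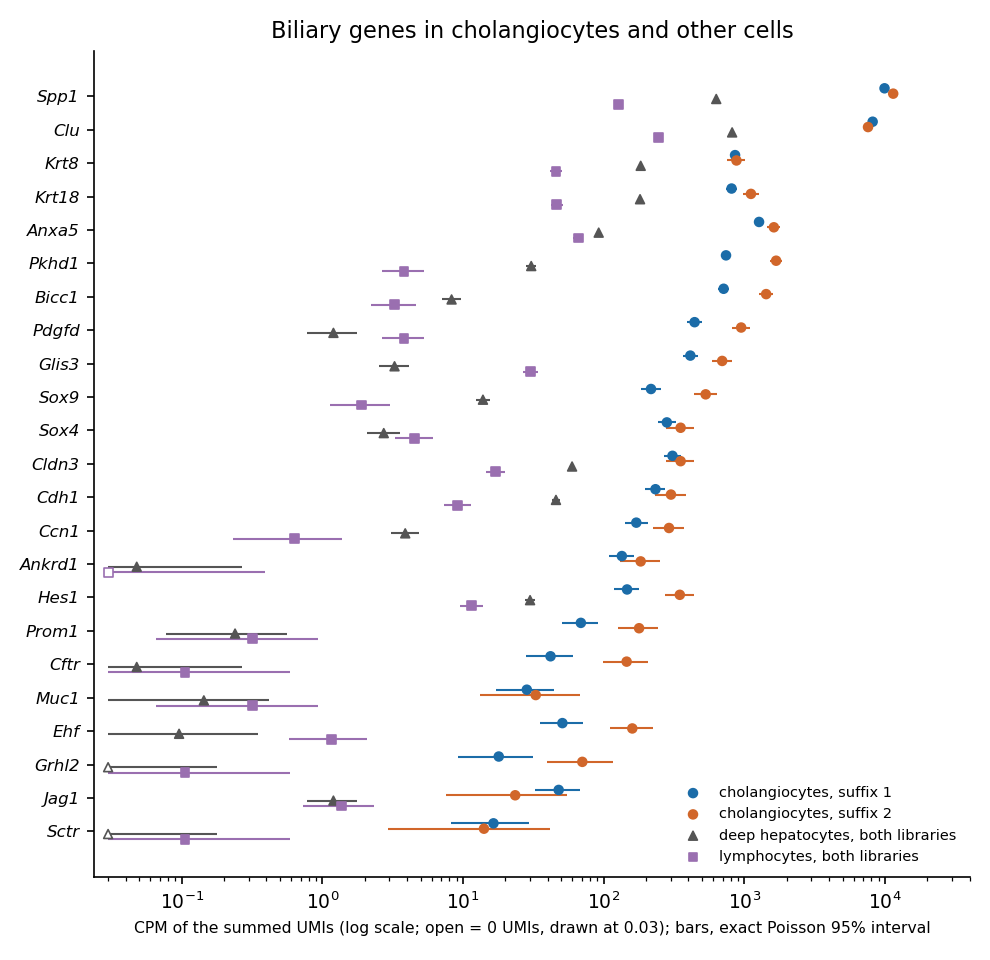
Summed levels (CPM, log scale) of 23 biliary genes in the cholangiocytes of suffix 1 and suffix 2, in deep hepatocytes and in lymphocytes, with exact Poisson 95% intervals as bars and open points for 0 UMIs drawn at 0.03. For Sox9 the cholangiocytes sit at 217 and 531 CPM, and deep hepatocytes of both libraries together at 13.9 CPM.

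Among 24 liver epithelial transcription factors, 7 were called higher in suffix 1 and 11 in suffix 2. Sox9, the ductal fate factor, had 217 CPM (183 to 255) and 531 CPM (438 to 638). Hepatocytes held 10.1 and 20.7 CPM of Sox9. Sox4 (281 and 352 CPM), Grhl2 (17.95 and 70.5 CPM) and Klf5 (19.5 and 61.1 CPM) were also called in both libraries, and Grhl2 had no UMI in deep hepatocytes. In unmixed cells 9 and 12 were called higher and 1 and 1 lower. Hnf4a, a factor of hepatocyte identity, was not called over all cells, at 133 and 98.7 CPM, against 213 and 206 CPM in hepatocytes, but in unmixed cells it had 65.5 CPM in suffix 1 and 6.96 CPM (0.176 to 38.8) in suffix 2, where its ratio of 0.0337 to hepatocytes rests on 1 UMI and passed the call as lower. Onecut2 (265 and 498 CPM) and Prox1 (271 and 371 CPM) were called only in suffix 2, and the difference between the libraries' ratios was not tested.

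Notch signalling, which directs ductal fate, and the YAP program, which responds to cell shape and matrix, were read from their receptors, ligands and targets. Of the Notch genes tested, 4 of 11 in suffix 1 and 4 of 10 in suffix 2 were called higher (5 and 5 in unmixed cells). They included the ligand Jag1 (47.9 and 23.5 CPM) and the target Hes1 (147 and 348 CPM), against 1.12 and 1.35 CPM and 26.7 and 35.9 CPM in hepatocytes. The receptor Notch2 (47.9 and 70.5 CPM) was not called, and Hey1, Heyl, Jag2, Dll1, Dll4 and Notch3 had no UMI in the 881327 UMIs of the 56 cells. Of 14 YAP targets and partners, 9 and 11 were called higher, with median ratios of 6.34 and 13.4. Ccn1, a secreted matricellular protein, had 171 CPM (141 to 205) and 291 CPM (223 to 373), against 4.395 and 2.96 CPM in hepatocytes. Ankrd1, a muscle-type ankyrin repeat protein induced by YAP, had 135 CPM (108 to 166) and 183 CPM (130 to 251) against 0.0745 and 0 CPM. Yap1 itself (41.9 and 61.1 CPM) was not called at 1.71 times the hepatocyte level over both libraries. In the promoters printed above, GGAATG stood 210 to 205 and 123 to 118 bases before the start of Ankrd1, and CATTCC 103 to 98 bases before that of Ccn1. Of 12 symbols of this list in the promoter table, with 14 promoters, 7 held the letters (Ajuba, Amotl2, Ankrd1, Axl, Ccn1, Wwtr1 and Yap1), and 2 of these 7, Axl and Yap1, were not called in either library. The letters were held by 2 of 18 symbols of the other biliary identity list. Of the 30 genes leading in ratio to hepatocytes, given below, 20 were in the table and 5 held them. These counts are per symbol, whereas the share over all promoters is per promoter. A second search, for GTTAAT or ATTAAC, matched 0, 2 and 2 symbols of these sets.

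Immediate early genes, which tissue digestion is known to induce, were partly higher as well, 8 of 16 and 7 of 15 (11 and 8 in unmixed cells). Jun had 322 and 564 CPM against 28.6 and 47.6 CPM in hepatocytes, and Egr1 had 91.3 and 207 CPM against 6.70 and 20.7 CPM. The heat shock genes Hspa1a, Hspa1b and Dnajb1 were not called.

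For bile secretion and ion transport, 10 of 19 genes were called higher in suffix 1 and 6 of 16 in suffix 2. Cftr, the chloride channel opened by secretin signalling, had 41.9 CPM (27.8 to 60.5) and 146 CPM (99.0 to 207), from 11 of 37 and 8 of 19 cells, and 1 UMI in all deep hepatocytes. The sodium-glucose transporter Slc5a1 had 103 and 108 CPM, and the potassium channel Kcnn4 had 20.9 and 56.4 CPM. Sctr, the secretin receptor, was seen in 7 of 56 cells (16.5 and 14.1 CPM), and 50% of its UMIs came from 1 cell. It had too few UMIs in suffix 2 for a call. The calcium-activated chloride channel Ano1 was seen in 15 cells (23.9 and 23.5 CPM) and in no deep hepatocyte. The apical bile acid transporter Slc10a2 (41.9 and 61.1 CPM) and the bicarbonate exchanger Slc4a2 (22.4 and 23.5 CPM) were not called. The bile acid receptor Gpbar1 and the basolateral bile acid exporter subunits Slc51a and Slc51b had no UMI.

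Of genes of the primary cilium and of cystic liver disease, 7 of 13 and 7 of 12 were called higher (9 and 8 in unmixed cells), with median ratios of 4.14 and 5.32. Pkhd1 (fibrocystin, whose loss causes congenital hepatic fibrosis) had 741 CPM and 1682 CPM, against 36.6 and 19.6 CPM in hepatocytes. Its unmixed level was 1357 CPM (1233 to 1491) and 2381 CPM (2135 to 2647). Bicc1, an RNA-binding protein of the polycystin pathway, had 712 CPM (650 to 779) and 1428 CPM (1272 to 1598), against 11.8 and 1.88 CPM in hepatocytes. Pkd2, the polycystin channel, had 73.3 and 84.6 CPM, while Pkd1 (12.0 and 14.1 CPM) was not called.

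The cells had an epithelial junction profile, with 13 of 23 and 13 of 20 junction and adhesion genes called higher. Cdh1 (E-cadherin) had 233 and 301 CPM against 54.1 and 30.8 CPM, the desmosomal cadherin Dsg2 had 468 and 611 CPM against 84.5 and 54.4 CPM, and Cldn3 had 308 and 352 CPM against 60.4 and 58.1 CPM. Cldn1 (5.98 and 9.40 CPM) and Cldn2 (10.5 and 4.70 CPM), which hepatocytes also express, were not called.

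Laminin-binding integrins and basement membrane genes were called in 10 of 16 and 7 of 13 cases. The integrin subunits Itga6 (41.9 and 61.1 CPM), Itga3 (38.9 and 28.2 CPM) and Itgb8 (61.3 and 103 CPM) were higher in both libraries, and the laminin chain Lamb2 had 23.9 and 28.2 CPM. For receptors and processing of osteopontin, 2 of 10 and 2 of 9 genes were called. These were Itga9 in both (40.4 and 61.1 CPM), Cd44 in suffix 1 (37.4 CPM) and Itga5 in suffix 2 (28.2 CPM). In the unmixed cells Cd44, an adhesion receptor abundant on lymphocytes, had 15.6 and 6.96 CPM. Itgav (50.9 and 42.3 CPM) and Itgb1 (163 and 183 CPM) were not called.

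Ligands known from the ductular reaction were called higher in 8 of 13 and 6 of 10 cases, with median ratios of 25.1 and 24.5. Pdgfd, a ligand of the PDGF receptor beta of stellate cells, had 443 and 949 CPM against 1.19 and 1.21 CPM in hepatocytes. Pdgfc had 115 and 287 CPM, Hbegf had 34.4 and 108 CPM, Wnt4 had 106 and 150 CPM and Ccn2 had 26.9 and 42.3 CPM. Tgfb2 was called in suffix 1 (47.9 CPM, 16 of 37 cells) and had too few UMIs for a call in suffix 2 (23.5 CPM, 3 of 19 cells), and Tgfb1 (13.5 and 14.1 CPM) was called in neither. The hedgehog ligands Shh and Dhh, and Wnt7a, Wnt7b, Edn1, Il6 and Areg, had no UMI. Of 18 chemokine and adhesion genes of reactive ducts, 16 had a UMI in suffix 1 and 9 in suffix 2. Of 12 and 9 tested, 6 and 1 were called higher and 0 and 1 lower (5 and 1 and 0 and 0 in unmixed cells). Cxcl16 (37.4 and 28.2 CPM) was called in both libraries, Vcam1 (56.9 and 9.40 CPM) in suffix 1, and all Ccl20 UMIs came from 1 cell of suffix 1.

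Progenitor and ductular markers were called in 6 of 9 and 5 of 7 cases, led by Prom1 (68.8 and 179 CPM) and the receptor Fgfr2 (85.3 and 202 CPM), while Lgr5 was seen in 1 cell and Trp63 and Foxl1 in none. Of 18 growth factor receptors, 5 and 6 were called higher, among them Fgfr3 (88.3 and 244 CPM) and Igf1r (50.9 and 136 CPM), and Il6ra was lower in suffix 2. In unmixed cells 2 receptors were lower in suffix 1 and 0 in suffix 2. Among 19 and 17 MHC and interferon genes, 1 was called higher in each library, Irf1 in suffix 1 and Cd74 in suffix 2. Cd74 was not called in unmixed cells (146 CPM in suffix 2), and 28 of its UMIs came from the cell with immunoglobulin genes described below. Mucins and defence genes were called in 5 of 11 and 5 of 9 cases. Muc1 was seen in 16 cells (28.4 and 32.9 CPM) and Fxyd3, a regulator of the sodium pump, in 25 (65.8 and 141 CPM), whereas Muc4, Muc5b, Muc13, Muc20 and the Reg3 genes had no UMI.

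Of 22 hepatocyte genes, none was higher and 1 was lower in each library, Cps1 in suffix 1 and Fga in suffix 2. Among unmixed cells, which were chosen in part by low Alb, 14 and 19 of the 22 were lower. Alb was 25450 and 16959 CPM over all cholangiocytes and 11736 and 8814 CPM in unmixed cells, next to 10237 and 12633 CPM in lymphocytes of the same libraries. Of 30 and 28 genes of lipid and sugar metabolism, 3 and 5 were called higher and 0 and 2 lower, and among unmixed cells 5 and 6 of 29 and 28 were higher and 5 and 8 lower. Scd2 (46.4 and 98.7 CPM), a stearoyl-CoA desaturase, was 72.4 times the hepatocyte level over both libraries, whereas Scd1 was lower in suffix 2 (2448 against 10625 CPM). Among 15 and 14 complement and acute phase genes, 2 and 2 were called higher and 3 and 4 lower (4 and 7 in unmixed cells), the acute phase genes Saa1, Saa2 and Orm1 in both libraries. None of the 13 mitochondrial genes was called over all cholangiocytes, with median ratios of 0.545 and 0.506, and 2 in each library were lower in unmixed cells, with median log2 ratios of -1.67 and -1.53. Erythroid genes were lower too, 4 of 5 in either library, with Hbb-bs at 86.8 and 28.2 CPM against 2148 and 1779 CPM. The erythroid sum of hepatocytes was carried by few cells, since the median cell held 226 and 144 CPM of these genes, against 129 and 59.7 CPM in cholangiocytes.

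Ranked by the ratio to deep hepatocytes, the 30 leading genes with at least 100 CPM also held less familiar names. The potassium channel gene Kcnma1 had 341 and 423 CPM, Fgf12, an intracellular fibroblast growth factor homologue, had 271 and 268 CPM, and Thsd4 had 239 and 277 CPM, each below 1 CPM in deep hepatocytes. The transcription factor gene Glis3 (413 and 695 CPM), the ciliary gene Dcdc2a (232 and 554 CPM), Rbms3 (221 and 423 CPM) and the annexin Anxa13 (144 and 263 CPM) were likewise near 0 there, at 3.26, 2.21, 1.58 and 0.288 CPM over both libraries. Secreted factors among them were Pdgfd, Wnt4, Angpt1 (136 and 282 CPM) and Sparc (217 and 146 CPM). The 30 genes had a median span of 169 kb in the annotation, and 56.7% spanned over 100 kb, against 23.7 kb and 13.7% for all genes tested. For all genes called higher over both libraries, the values were 35.4 kb and 25.8%. The sources used here do not say whether reads in introns were counted, and the part of gene length in these ratios was not tested. Of the rule genes, Krt19, Epcam and Cldn7 are among the 30.

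Genes also differed in how evenly they were spread over the 41 unmixed cells. The measure was the variance of the counts over that of Poisson counts, less 1 and divided by the mean UMIs per cell, because the ratio alone grows with the level. Spp1 (0.182) and Clu (0.258), seen in 41 of 41 cells, lay near Cdh1 (0.144) and Dsg2 (0.119), and Pkhd1 had 0.495. Kcnip4, which encodes a potassium channel interacting protein, had 3.11 and was seen in 17 of 41 cells, with up to 4295 CPM in 1 cell and none in the median cell. Ankrd1 had 4.397 (16 of 41 cells, up to 2612 CPM), and Erbb4, a neuregulin receptor, had 1.09 (33 of 41 cells, up to 4611 CPM). Both Kcnip4 and Ankrd1 were seen in 9 cells, Kcnip4 without Ankrd1 in 8, Ankrd1 without Kcnip4 in 7, and neither in 17. Cells with these genes were present in both libraries.

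**Figure D4:**
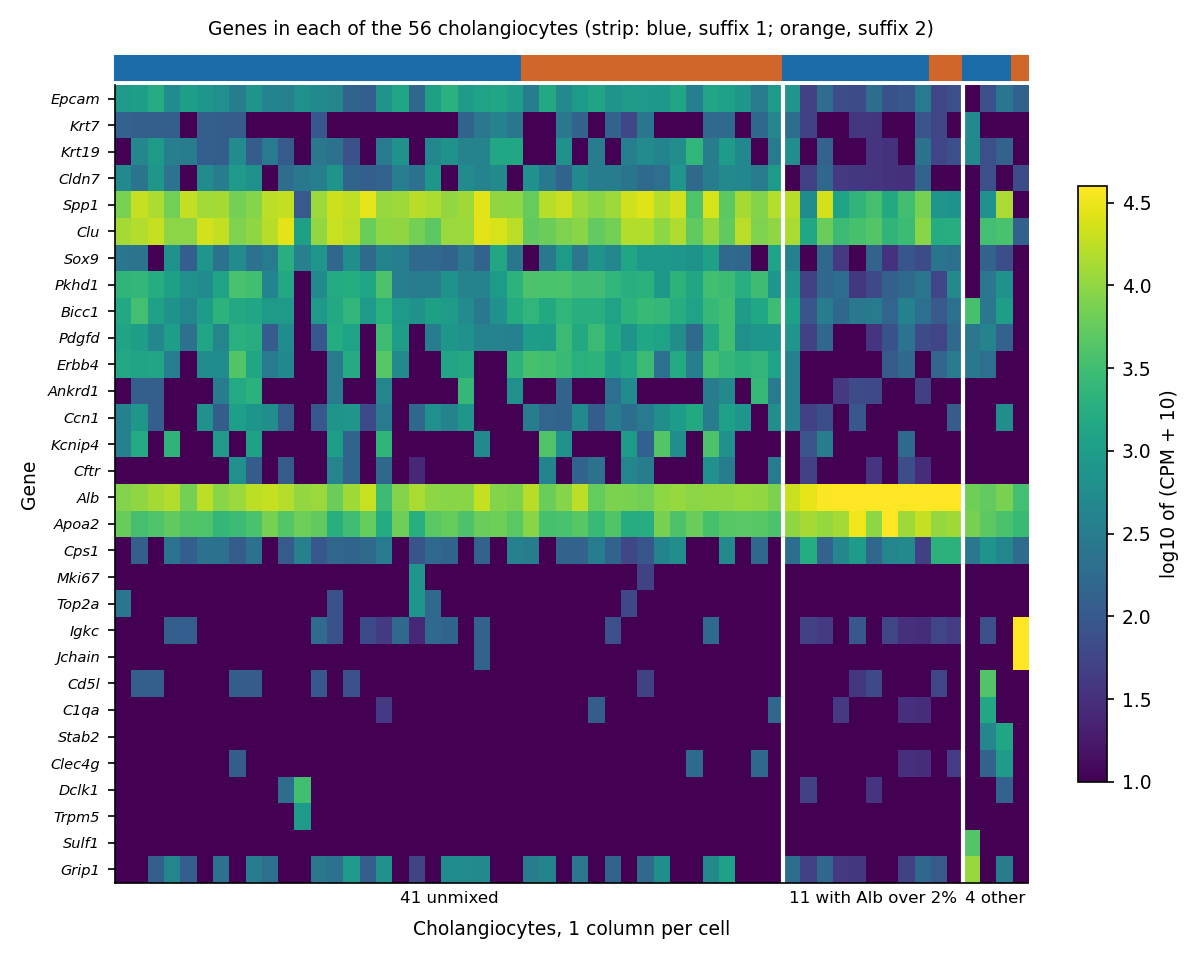
Level of 30 genes in each of the 56 cholangiocytes as the log10 of CPM plus 10, with 1 column per cell, the 41 unmixed cells on the left, then the 11 cells with Alb over 2% and the 4 cells with UMIs of another cell type list, and the suffix as a strip on top. Spp1 and Clu are bright in nearly every unmixed column, whereas Kcnip4 (17 cells) and Ankrd1 (16 cells) are not.

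Single cells stood apart from the rest, and they are described by their leading genes, chosen after the values were seen. The deepest cell, of suffix 1 with 66134 UMIs, held 52 UMIs of Ube2c, 51 of Top2a, 50 of Mki67 and 47 of Cenpf, all genes of cell division, and 16119 CPM of Spp1. Its leading genes also included Serpina1b (357 UMIs), Ces3a (69) and Spink1 (68). This cell held no UMI of Krt7, Krt19, Pdgfd or Erbb4, and UMIs of 6 of the 8 outside markers. It held 98.0% of all Mki67 UMIs of the cholangiocytes and all of those in suffix 1, where 12 of 13 cell cycle genes were called higher (4 of 12 in suffix 2). Ccnd1, which drives entry into the cycle, was by contrast seen in 22 cells (139 and 258 CPM). The unmixed cell with the lowest Spp1 (91.4 CPM, 1 UMI) held 44 UMIs of Pate4, 35 of Dclk1, 18 of Alox5ap, needed for leukotriene synthesis, 17 of Rgs13, 16 of the G protein subunit Gng13 and 10 of the cation channel Trpm5. It held no UMI of Krt19, Pkhd1, Bicc1 or Pdgfd, 4 UMIs of Sox9 and UMIs of 3 of the 8 outside markers, so its leading genes go against the label, although it was kept among the unmixed cells.

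The 4 cells with 10 or more UMIs of another list were each different. A cell of suffix 2 held 8564 UMIs of Igkc, 1629 of Igha and 970 of Jchain, the immunoglobulin genes of plasma cells, and 12 UMIs of neutrophil and monocyte genes, with 0 UMIs of Spp1 and none of the 8 outside markers. The other cell without an outside marker, of suffix 1 with 3911 UMIs, held 13 UMIs of mesothelial genes, 44 of Grip1, 17 of Sulf1 and 15 of Ltbp1, and no Spp1. The label cholangiocyte is therefore not borne out by the markers in these 2 cells either. In suffix 1, a cell held 195 UMIs of macrophage and Kupffer cell genes, led by Cd5l (63) and Clec4f (28), and 20 of endothelial genes, with 654 CPM of Spp1. Another cell of suffix 1 held 70 UMIs of endothelial genes, led by Stab2 (21), with 13990 CPM of Spp1. Unmixed cells were chosen to hold under 10 UMIs of each of the 6 lists, which bounds their sums. Mesothelial genes outside the rule summed to 96.9 CPM in unmixed cells, with none in 19 of the 41. In the same cells, markers of T and NK, B and plasma, and endothelial cells summed to 8.62, 34.5 and 15.1 CPM. Macrophage and Kupffer genes summed to 81.9 CPM in unmixed cells, of which Csf1r alone had 34.5 CPM. Of 9 stellate genes, Col1a1, Col1a2, Col3a1, Pdgfrb, Lrat, Acta2 and Des had no UMI, whereas Rgs5, a regulator of G protein signalling listed as a pericyte gene, was seen in 30 of 56 cells (89.8 and 98.7 CPM). Of the mesothelial genes outside the rule, Gpm6a was seen in 21 cells (44.9 and 84.6 CPM) and Msln in 2.

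Between the cholangiocytes of the libraries, a gene was called when it was at least 2-fold apart, the 95% intervals did not overlap and no cell held 50% or more of the UMIs on the higher side. Suffix 2 was higher for 2.08% of 8941 genes (186) and suffix 1 for 1.39% (124). For deep hepatocytes the shares were 2.64% and 2.88%, and for lymphocytes 0.975% each. Without the 11 cells with Alb over 2%, the shares were 0.911% (70 genes) and 1.22% (94 genes). When all 15 cells were left out, 93 genes (1.28%) and 50 (0.691%) were called, of which 83 and 23 were among the 186 and 124. The 9 cells with Alb over 2% in suffix 1 held 312911 of its 668458 UMIs, and the 2 in suffix 2 held 52482 of 212869, and their part in these calls was not tested.

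Of 25 other biliary identity genes, 7 were called on the side of suffix 2 and 0 on that of suffix 1 (3 and 0 among unmixed cells). Other lists also had calls on the side of suffix 1. These were 5 of 27 lipid and metabolism genes, 3 of 22 hepatocyte genes and 2 of 17 MHC and interferon genes. They were also 2 of 14 complement and acute phase genes and 2 of 11 mucin and defence genes. A single call fell among 16 growth factor receptors, 14 laminin and integrin genes, 8 chemokine and adhesion genes and 5 erythroid genes each. In the same order, the calls on the side of suffix 2 were 1, 3, 0, 3, 2, 5, 0, 0 and 0. Pkhd1, Sox9, Bicc1, Cftr and Pdgfd were 2.01 to 3.48 times higher in suffix 2 over all cholangiocytes, and their ratio in unmixed cells was 1.69 to 3.14, where only Cftr of these 5 was still called. The deepest unmixed cell of suffix 1 held 66134 of the 320557 UMIs of that class. It had 287 CPM of Pkhd1, 166 of Sox9, 680 of Bicc1, 15.1 of Cftr and none of Pdgfd. Its part in these ratios was not tested. Thinned to 3000 UMIs, Sox9 was seen in 48% of unmixed cells of suffix 1 (27.8 to 68.7) and 75% of suffix 2 (47.6 to 92.7), with intervals that overlap, and the unthinned shares were 96% and 87.5%, the other way round. The thinned shares rest on a random draw, whose spread was not measured.

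Among the genes with at least 100 CPM, Lamc3, a laminin gamma chain with no UMI in any deep hepatocyte or lymphocyte, had 37.4 CPM in suffix 1 (9 of 37 cells) and 235 CPM in suffix 2 (15 of 19 cells). In unmixed cells it had 62.4 and 327 CPM. Tm4sf1, a tetraspan membrane protein, had 55.4 and 296 CPM, the kinase gene Sgk1 had 35.9 and 160 CPM, the laminin chain Lama4 had 38.9 and 155 CPM, and Nebl and Rassf9 had 26.9 and 146 CPM and 35.9 and 179 CPM. All were below 7 CPM in deep hepatocytes of either library. Kcnab1, which encodes a potassium channel subunit, had 61.3 and 296 CPM. The 3 other genes among the 10 leading ones on this side, Mup3, Wfdc21 and Got1, differed the same way in hepatocytes. Mup3, of a family of near-identical genes whose reads may be split, had 639 and 3739 CPM in cholangiocytes against 1795 and 11427 CPM in deep hepatocytes, Wfdc21 had 13.5 and 117 CPM against 50.2 and 453 CPM, and Got1, an aspartate aminotransferase, had 20.9 and 122 CPM against 51.6 and 371 CPM.

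On the side of suffix 1, Spink1, a trypsin inhibitor, had 334 CPM (14 of 37 cells) against 4.70 CPM (1 of 19 cells) in suffix 2, and the metallothioneins Mt1 and Mt2 had 974 and 201 CPM against 89.3 and 9.40 CPM. Tff3, a trefoil peptide, had 558 against 56.4 CPM, and Hamp (hepcidin) 1213 against 179 CPM. In deep hepatocytes Spink1 had 142 and 11.7 CPM, Mt1 1246 and 258 CPM and Tff3 661 and 45.2 CPM, so these genes also differed there. In unmixed cells Spink1 had 306 and 6.96 CPM from 8 of 41 cells, with 68.7% of its UMIs from 1 cell, and it was not called, nor were Tff3 (140 and 13.9 CPM) and Lgals1 (746 and 118 CPM). Mt1 (396 and 76.6 CPM), Mt2 (119 and 13.9 CPM) and Hamp (303 and 146 CPM) were still called. Over all cholangiocytes Lgals1 (galectin 1), at 464 and 89.3 CPM, was higher in cholangiocytes than in hepatocytes of suffix 1 (97.1 CPM), and 42.6% of its UMIs came from 1 cell. Spp1 and Clu were not called between the libraries, at 1.15 and 0.927 times for suffix 2 over suffix 1, although hepatocytes differed widely in Spp1.

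**Figure D5:**
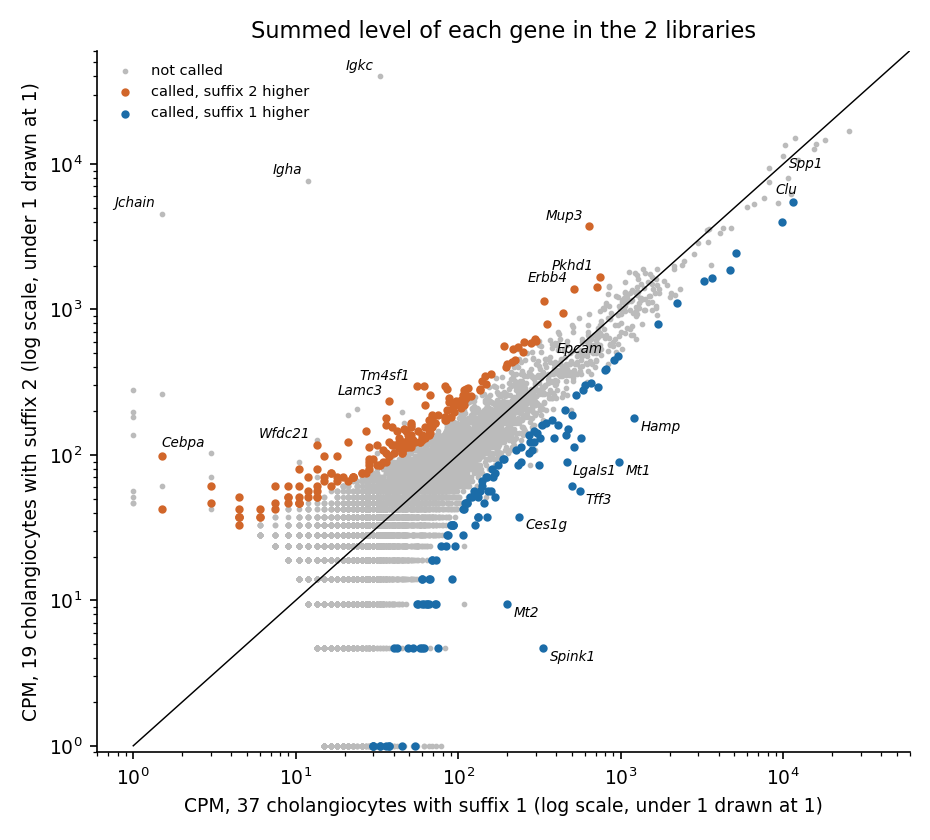
Summed level of each gene in the 37 cholangiocytes of suffix 1 and the 19 of suffix 2 (CPM, log scales, values under 1 drawn at 1), with called genes coloured. Lamc3 (37.4 and 235 CPM) lies on the side of suffix 2, Spink1 (334 and 4.70 CPM) on that of suffix 1, and Spp1 (9914 and 11425 CPM) near the diagonal; Igkc, from 1 cell, is not called.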

How the data were processed

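The authors deposited 1 joined matrix of whole-number UMI counts for 32285 genes and 32316 barcodes from 2 liver samples. The submitters' processing notes name Cell Ranger 7.1.0, bcl2fastq 2.20.0, STAR 2.7.2a and mm10. Livers were perfused and digested, cells were purified on Percoll, and each sample took 1 lane of 10x 3' v3.1 chemistry. The sources used here do not say whether intronic reads were counted. Gene positions are from GENCODE M21, which held 99.6% of the gene IDs.

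Counts were summed over cells and written as CPM of all UMIs of those cells. Total counts were 668458 and 212869 UMIs over the cholangiocytes of suffix 1 and 2. Intervals are exact Poisson (CPM) or Clopper-Pearson (shares) at 95%. A class at 0 was set to 3 UMIs for a bound. Doublets were not removed and no doublet caller was run. A run of the ratio calls on simulated counts has no outcome given here, so no call rests on it. The Poisson intervals do not cover spread between cells. Over the 41 unmixed cells, the variance of the counts was 32.5 times that of Poisson counts for Spp1 and 1.58 times for Cdh1. How this spread affects the calls, including those between libraries, was not tested. Genes were named by list, as the 30 leading ratios to hepatocytes, the 10 leading ratios between libraries in each direction and the 20 highest levels. The cells and lists were chosen with earlier results of these data known. Alternative filters, marker limits and cells left out were tried. Python 3.11.15, numpy 2.4.6, scipy 1.17.1, pandas 2.3.3 and matplotlib 3.10.9 were used. A few genes are not reported here.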

Additional observations from a re-analysis of the deposited data

Results flagged for a closer look

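Spp1 was also found in droplets that the rule left out. In suffix 1, 2 droplets met the marker limits but exceeded the mitochondrial limit of 25%, and held 2820 CPM of Spp1 (95% interval 2346 to 3363). Another 8 cells of suffix 1 met the marker limits but held more than 1 UMI of Ptprc, and had 5480 CPM (5151 to 5823), with 285 CPM of Sox9. Over both libraries, 10 cells with 3 or more UMIs of only 1 rule gene had 12790 CPM of Spp1 (12298 to 13305) and 153 CPM of Sox9. These levels lie above those of deep hepatocytes in the same libraries, at 940 and 72.1 CPM. No cell under 500 UMIs met the marker limits.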

How the results depend on the processing

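No paired analysis was possible because each genotype has 1 sample and no test was run. The number of cholangiocytes stayed within 25 to 39 in suffix 1 and 15 to 19 in suffix 2 under every alternative. Leaving out cells with 10 or more UMIs of another cell type list was chosen after seeing the data.

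Spp1 CPM in cholangiocytes, suffix 1 (9914) became 9476 without a mitochondrial filter or at 50%, 12730 at 10%, 11080 with 5 rule UMIs, 9409 with 3 rule genes seen, 9354 with no Ptprc UMI, 13900 without cells with Alb over 2%, 14690 without these and cells of another list, 11400 as a mean over cells and 9233 without the cell holding most. Spp1 CPM in cholangiocytes, suffix 2 (11425) became 15290 at 10%, 16910 with 5 rule UMIs, 14690 with 3 rule genes, 14930 without Alb over 2%, 12400 without cells of another list, 16670 without both, 12280 as a mean and 9473 without the top cell.

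Alb CPM in cholangiocytes, suffix 1 (25450) became 18930 at 10%, 23220 with 5 rule UMIs, 25950 with 3 rule genes, 28680 with no Ptprc UMI, 11220 without Alb over 2%, 26500 without cells of another list, 11740 without both, 18010 as a mean and 24100 without the top cell. Alb CPM in cholangiocytes, suffix 2 (16959) became, in the same order without the Ptprc setting, 7577, 8649, 13200, 8236, 18130, 8814, 12910 and 12070.

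Genes at least 4-fold higher in cholangiocytes than in deep hepatocytes, suffix 1 (1836) numbered 826 at 10%, and genes at least 4-fold higher in cholangiocytes than in deep hepatocytes, suffix 2 (1697) numbered 3184 without a mitochondrial filter, where the hepatocytes also change. Genes at least 2-fold apart between suffixes in cholangiocytes, suffix 2 higher (186) numbered 312 with 5 rule UMIs, 70 without Alb over 2% and 93 without both kinds of cell. Genes at least 2-fold apart between suffixes in cholangiocytes, suffix 1 higher (124) numbered 78 without cells of another list and 50 without both, but 177 with 5 rule UMIs and 184 at 10%, where suffix 2 was higher for 155, so that the side with more genes changed. The cause of these moves was not tested. Scd1, higher in suffix 1 over all cholangiocytes, was higher in suffix 2 without cells with Alb over 2% (log2 0.49) and without both kinds (log2 0.53). Of 780 settings of single genes between suffixes, 127 were no longer called, while all 350 of single genes against hepatocytes kept their call.

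With 56 cells, rare genes such as Sctr rest on few UMIs.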
